A study of Mus musculus with 32 samples.

Results

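The early liver response to lipopolysaccharide (LPS, the endotoxin of Gram-negative bacteria) was read in wild-type mice. The members are the 4 arrays titled as wild-type livers at 6 h of LPS, set against the 6 arrays titled as wild-type livers on saline. These are 10 of the 32 arrays of the series, each from 1 mouse, and the others come from wild-type livers at 20 h of LPS and from E2f1 knockouts. The arrays were assigned to the groups by their titles. All 10 mice were E2F1+/+ and labelled as the strain B6x126 F2, which the titles write as B6129, and F2 is a generation in which the alleles of the founder strains segregate between animals. LPS or saline had been given systemically, by a route and at a dose not given in the sources used here, and the age and sex of the mice are not given either. The saline livers are labelled 20 h and the LPS livers 6 h, so the effects of LPS and of the time after injection cannot be told apart. The labels name liver as the tissue, while their RNA protocol names lung.

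LPS is bound by CD14 and MD-2 and signals through Toll-like receptor 4, which activates NF-kB and AP-1 through the adaptor MyD88 and interferon regulatory factors through the adaptor TRIF. Cytokines and interferons released by Kupffer cells and other first responders then act on hepatocytes, sinusoidal endothelium and stellate cells through STAT factors and NF-kB. In hepatocytes this acute-phase response is known to raise secreted defence proteins and to lower many genes of metabolism and transport.

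Each array is a 1-colour Agilent array of 60-base probes. A level is the log2 signal of a gene's probe minus the log2 of the array's 75th percentile, a change is the LPS mean minus the saline mean in log2 units, and an error after ± is the standard error of that change unless named otherwise. The 75th percentile of the signal was 489 to 761 on the LPS arrays and 437 to 896 on the saline arrays, and 21106 to 28850 spots an array stood well above background. After dim probes were left out, 17154 gene names were tested. The first principal component of their levels held 60.0% of the variance and placed the LPS livers at 90.20 to 117.57 and the saline livers at −77.07 to −56.55. The second held 12.9% and separated livers of the first scan date (−57.55 to −18.15) from those of the second (30.05 to 52.91). LPS replicates 3 and 4 each shared a scan date with 3 saline livers, and replicates 1 and 2 were scanned on a date that holds no wild-type saline liver. Replicates are separate mice.

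The 9 hepatocyte markers tested were well above background on all 10 arrays. Alb, the albumin gene, stood at 9.85, 10.12, 10.14 and 10.51 in the LPS livers and at 9.54 to 10.50 (median 10.06) on saline, with a change of 0.11 ± 0.23. Together these markers summed to 4460 to 5790 times the 75th percentile on LPS and to 3184 to 5481 times on saline. Of 8 lung epithelial markers 3 passed the filter on dim probes, and they summed to 0.228 to 1.14 on LPS and 0.0690 to 0.282 on saline. Sftpb and Sftpc, the defining surfactant genes of the lung, did not pass it. E2f1, the gene that the series deletes in its other genotype, was at −4.01, −3.77, −4.28 and −3.27 on LPS and −5.05 to −2.30 (median −3.37) on saline, well above background on all 10 arrays.

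One saline liver stood apart. Saline replicate 5 was far above the other 5 saline livers, by Dixon's criterion, in 15 of the 237 genes described here, among them Cxcl10, Socs1, Gbp2 and Il1rn. Without it 2540 genes were higher and 3492 lower, against 2715 and 3805 with it. Without it the changes of 10 genes grew by more than 1.5 times as linear folds, to 8.73 for Socs1, 8.22 for Ccl2, 8.31 for Lcn2, 7.87 for Cxcl9, 8.10 for Il1rn, 8.61 for Gbp2, 5.70 for Mt2, 8.91 for Ch25h, 9.94 for Irg1 and 6.94 for Reg3b. All later values include it.

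In all 6520 of 17154 genes (38.0%) differed between the groups at an adjusted p of 0.05 in limma's test, 2715 (15.8%) higher and 3805 (22.2%) lower at 6 h of LPS. The median change of all genes was −0.03. Among the called genes 4972 had groups that do not overlap, and 244 rose and 54 fell by at least 16-fold. All 4 LPS livers lay above all 6 saline livers in 12.4% of the genes tested and below them in 17.4%. Within the first and second scan dates, where 1 LPS liver stands against 3 saline livers, 99.7% and 99.8% of the called genes and 74.9% and 77.9% of the others had the direction they have over all 10 livers, to which these livers contribute. Under 4 other normalizations the median of all genes lay between −0.11 and −0.19 and the share of calls that were rises between 34.0% and 36.7%, against 41.6% here.

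**Figure D1:**
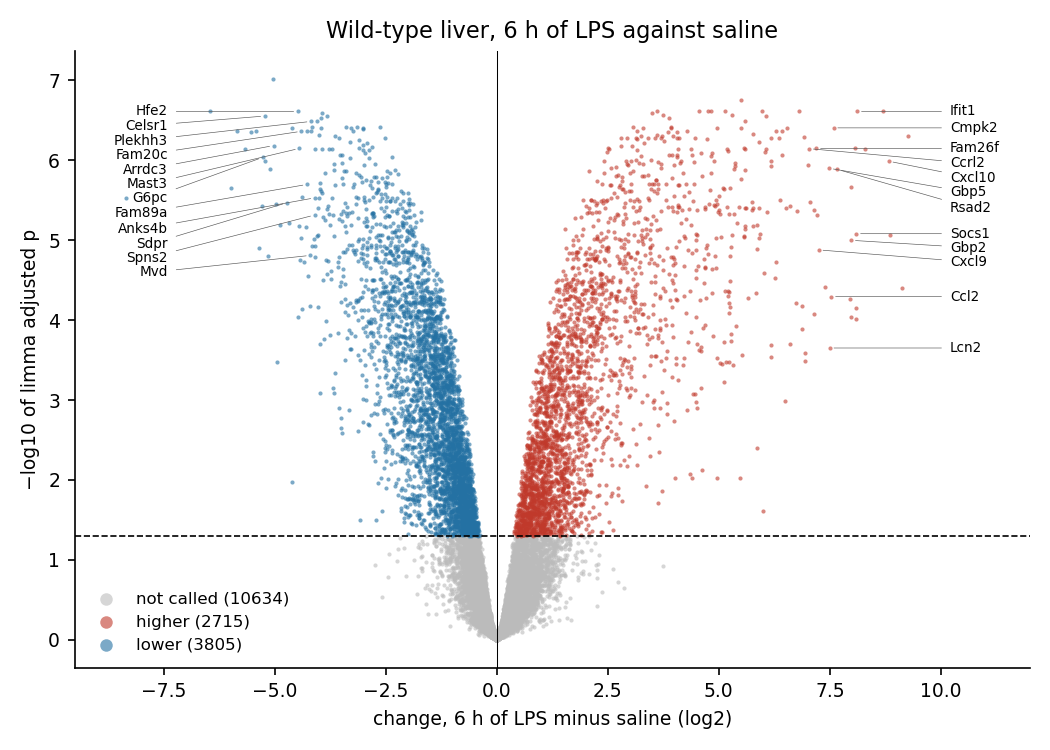
Change at 6 h of LPS against saline (x, log2) and −log10 of limma's adjusted p (y) for 17154 genes, with called genes in colour and the dashed line at an adjusted p of 0.05. The 2715 rises reach further from 0 than the 3805 falls. The labelled genes are those with the largest changes among genes well above background on all 10 arrays whose groups do not overlap. Clone, predicted and numbered names were left out of the labels.

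The 12 largest rises among genes measured on all 10 arrays, taken from those whose groups do not overlap, included chemokines, interferon-induced genes and an inhibitor of cytokine signalling. Clone, predicted and numbered names were left out of this and all later rankings over the genes tested. Cxcl10, a chemokine that draws T and NK cells (chromosome 5, 92775781 to 92775840 on mm9, as for all probe positions here), stood at 8.74, 8.91, 8.51 and 8.69 in the LPS livers and at −1.08 to 2.37 (median −0.56) on saline. The change was 8.83 ± 0.57 (adjusted p = 1.03e-06 in limma), or 455.3-fold. Saline replicate 5, at 2.37, lay above the other saline livers, and without it the change was 9.33. Ifit1, which binds viral RNA (chromosome 19, 34723796 to 34723855), was at 8.10, 8.11, 7.74 and 8.16 against −0.64 to 1.42 (median −0.36) on saline, a change of 8.12 ± 0.36 (adjusted p = 2.45e-07). Rsad2, the antiviral enzyme viperin (chromosome 12, 27127859 to 27127918), was at 8.27, 9.03, 8.38 and 8.79 against 0.34 to 3.19 (median 0.54), a change of 7.67 ± 0.51, and its other probes gave 8.26 and 8.36. Socs1, an inhibitor of JAK kinases (chromosome 16, 10783951 to 10784010), was at 6.62, 7.39, 6.67 and 7.28 against −2.45 to 2.03 (median −1.56), a change of 8.10 ± 0.72 (adjusted p = 8.3e-06). That the lowest LPS liver lies above the highest saline liver in these genes follows from how they were chosen.

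Ccl2, which draws monocytes (chromosome 11, 81850650 to 81850709), was at 5.35, 7.28, 5.95 and 5.87 on LPS and at −3.14 to 2.0 (median −2.03) on saline, a change of 7.54 ± 0.87 (adjusted p = 5.09e-05). Lcn2, which binds bacterial siderophores (chromosome 2, 32241037 to 32241281), was at 7.40, 7.69, 7.32 and 7.0 against −3.04 to 3.90 (median −0.29), a change of 7.50 ± 1.07 (adjusted p = 0.000223). The 4 LPS livers lay within 1 log2 unit for Lcn2, while the saline livers spread over several, which is the larger part of its error. Cxcl9, a chemokine induced by interferon gamma, changed by 7.25 ± 0.69. The mitochondrial nucleotide kinase Cmpk2 changed by 7.59 ± 0.39, Fam26f by 7.20 ± 0.43 and Ccrl2, a receptor that binds the chemoattractant chemerin, by 7.04 ± 0.43. Gbp2 and Gbp5, the remaining 2 of the 12 largest rises, are described with the other GTPases. A gene given with a change may be measured in only some livers of a group: well above background on saline were 5 of 6 livers for Tlr3, Edn1, Slc2a6, Slc39a10, Hspa2 and Ifit2 and 4 of 6 for Ier3, Egr2, Irak3, Il1rn, Gbp4, Bmper, Retnlg and Gzmb, and on LPS 3 of 4 for Nr0b2 and Cgref1.

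The upstream regions of the rising genes were searched for the letters of known response elements, because interferon-induced genes were among the largest rises. RefSeq promoters (build GRCm38.p6) held 250 bases before the start for 11400 of the tested genes. The interferon-stimulated response element was searched as GAAA, any 2 letters and GAAA again, the NF-kB site as GGGA, any 2 letters and TTCC and the AP-1 site as TGANTCA, on both strands, with overlaps between motifs allowed. The first was found in 3.43% of tested genes, in 6.70% of 1791 higher genes, in 2.26% of 2747 lower genes and in 3.05% of 6862 genes not called. Among 177 higher genes with at least a 16-fold change 39 held it. The NF-kB letters were in 1.42% of tested genes, 2.01% of the higher and 1.16% of the lower ones, and in 6.21% of those with at least a 16-fold rise. The AP-1 letters were in 6.17%, 8.71%, 5.06% and 17.5% of the same sets. The sterol element TCACNCCAC was in 1.27% of tested and 1.35% of lower genes, and the cAMP element TGACGTCA in 2.69% and 2.58%. A match describes the letters in this window and no binding was measured.

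The 250 bases before the start of 5 interferon-induced genes are printed because they show how the matches lie, with the letters of any of these motifs in capitals. Each is given 5′ to 3′ on the strand of its gene, in the order Ifit1 (chr19:34640639-34640888, plus strand), Rsad2 (chr12:26456453-26456702, minus strand), Gbp2 (chr3:142620413-142620662, plus strand), Gbp5 (chr3:142496684-142496933, plus strand) and Cxcl10 (chr5:92348890-92349139, minus strand).
Ifit1: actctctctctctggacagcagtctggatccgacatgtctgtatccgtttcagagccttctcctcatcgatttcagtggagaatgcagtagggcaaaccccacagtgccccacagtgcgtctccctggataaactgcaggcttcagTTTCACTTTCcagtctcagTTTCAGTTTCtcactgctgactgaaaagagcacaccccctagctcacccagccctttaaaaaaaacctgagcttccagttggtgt
Rsad2: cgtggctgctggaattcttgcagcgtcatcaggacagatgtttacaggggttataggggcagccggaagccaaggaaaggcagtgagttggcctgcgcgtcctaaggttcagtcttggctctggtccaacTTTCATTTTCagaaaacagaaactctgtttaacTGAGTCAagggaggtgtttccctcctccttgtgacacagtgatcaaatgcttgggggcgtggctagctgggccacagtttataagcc
Gbp2: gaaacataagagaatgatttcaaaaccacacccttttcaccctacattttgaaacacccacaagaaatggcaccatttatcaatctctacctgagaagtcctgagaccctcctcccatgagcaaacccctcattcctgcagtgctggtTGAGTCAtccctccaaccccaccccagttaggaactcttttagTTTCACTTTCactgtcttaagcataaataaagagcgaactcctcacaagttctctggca
Gbp5: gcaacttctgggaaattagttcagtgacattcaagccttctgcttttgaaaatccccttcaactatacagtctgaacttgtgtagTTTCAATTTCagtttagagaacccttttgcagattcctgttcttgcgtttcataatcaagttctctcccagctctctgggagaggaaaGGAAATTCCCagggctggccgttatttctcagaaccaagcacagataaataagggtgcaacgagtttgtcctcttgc
Cxcl10: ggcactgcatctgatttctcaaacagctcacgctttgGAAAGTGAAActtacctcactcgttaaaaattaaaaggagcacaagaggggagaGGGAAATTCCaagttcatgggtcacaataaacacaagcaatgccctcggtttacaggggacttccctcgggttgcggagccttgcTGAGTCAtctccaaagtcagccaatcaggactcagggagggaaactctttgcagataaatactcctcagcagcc
In Ifit1 a pair of interferon elements starts 104 and 85 bases before the gene's start. Rsad2 holds 1 interferon element and 1 AP-1 match, and Gbp2 the same kinds in the other order, with its interferon element 59 bases before the start. Gbp5 joins an interferon element to an NF-kB match 77 bases before the start. Cxcl10 holds all 3, at 213, 159 and 74 bases before its start for the interferon, NF-kB and AP-1 letters. Of 10 interferon-inducible GTPases with a promoter 9 held the interferon element, against 3.43% of all tested genes. In the other lists searched, it was in 3 of 17 class I pathway genes and 1 of 12 adhesion and endothelial activation genes. It was also in 1 of 24 feedback inhibitors and 1 of 18 immediate-early factors.

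**Figure D2:**
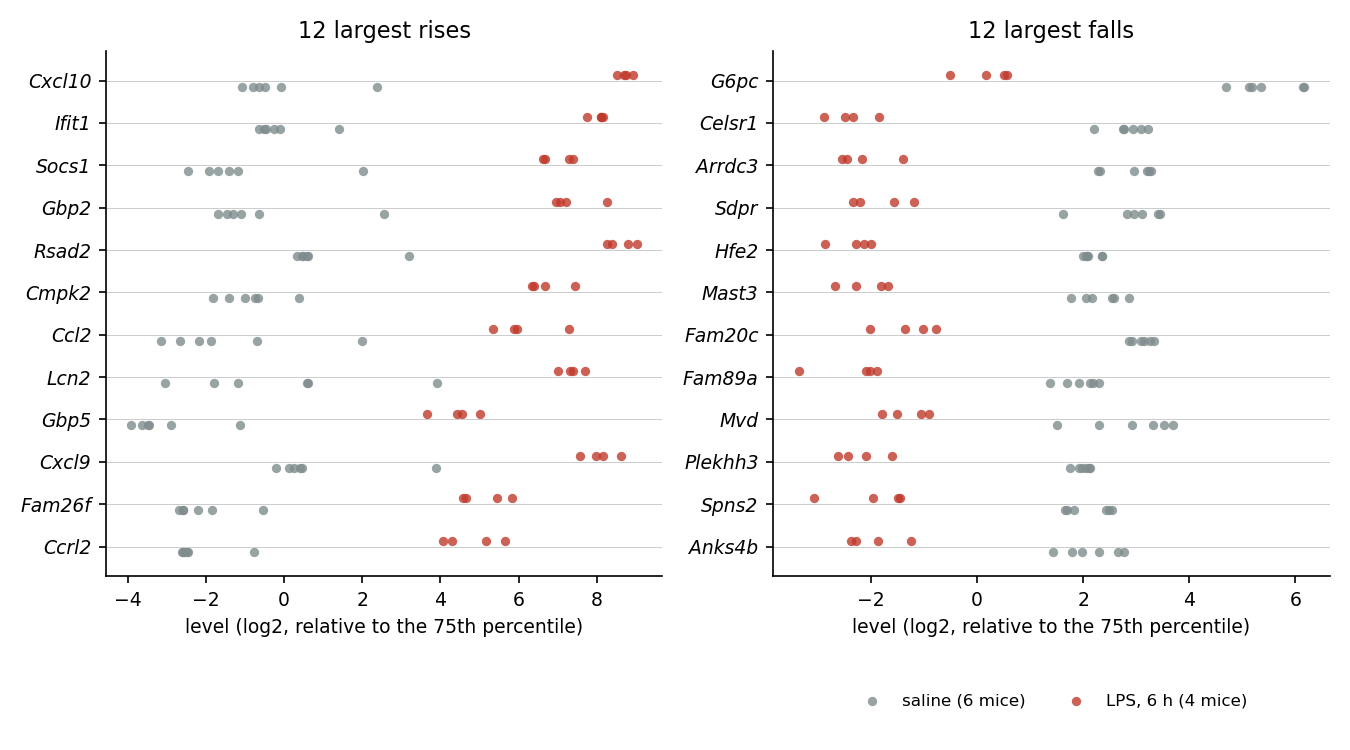
Level (log2 relative to the array's 75th percentile) of the 12 largest rises (left) and the 12 largest falls (right) among genes well above background on all 10 arrays; each point is 1 mouse, 4 on LPS and 6 on saline. Genes were chosen from those whose groups do not overlap, with clone, predicted and numbered names left out. The LPS points therefore lie wholly above or wholly below the saline points in each.

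Immediate-early and AP-1 transcription factors, which are switched on without new protein synthesis, were broadly higher. Of 23 tested (27 listed) 19 rose (82.6%, against 15.8% of all genes) and none fell (against 22.2%), with a median change of 2.82. Ier3, an immediate-early survival gene, changed by 5.67 ± 0.66 and the stress factor Atf3 by 5.58 ± 0.45. Cebpd, a driver of acute-phase genes (chromosome 16, 15888459 to 15888518), was at 6.38, 7.20, 6.65 and 7.25 on LPS and 1.75 to 3.74 (median 2.69) on saline, a change of 4.23 ± 0.38 (adjusted p = 8.91e-06). Jun was at 2.17, 2.44, 2.07 and 2.71 against −1.93 to −0.65 (median −1.46), a change of 3.69 ± 0.30. Egr2 rose by 3.48 ± 0.52, Myc by 3.34 ± 0.30 and the NF-kB co-activator Bcl3 by 3.03 ± 0.34. Neither Cebpd nor Jun overlapped between groups. Of all 6520 called genes 4972 did not overlap, and the genes given from each list were mostly picked for large changes. Such separation therefore adds little, here and in the lists below. Klf2, a flow-sensitive endothelial factor, had −0.13 ± 0.39 in its brightest probe but 3.53 in its other and 1.70 as the mean over both, so its change is not settled here.

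Feedback inhibitors, which limit cytokine, Toll-like receptor and MAP kinase signalling, were also higher in most cases. Of 32 tested (33 listed) 24 rose and 3 fell, or 75% and 9.4% against 15.8% and 22.2% of all genes. Their median was 2.27. Beside Socs1, the phosphatase Dusp2 was at 3.84, 4.54, 3.86 and 4.19 on LPS and −3.07 to −0.95 (median −2.40) on saline, a change of 6.35 ± 0.36 (adjusted p = 5.2e-07). The deubiquitinase A20, encoded by Tnfaip3, was at 4.70, 5.58, 4.63 and 4.74 against −2.30 to 0.11 (median −1.26), a change of 6.18 ± 0.41. Irak3, which blocks Toll-like receptor kinases, rose by 5.40 ± 0.46 and Socs3, which limits IL-6 signalling, by 5.05 ± 0.46. Dusp2 and Tnfaip3 did not overlap between groups. The 3 members that fell were Trib3 at −1.93 ± 0.26, the ERK phosphatase Dusp6 at −1.23 ± 0.35 and Sigirr, an inhibitory receptor of the IL-1 family, at −1.10 ± 0.16. Dusp6 missed the threshold without LPS replicate 1 (−1.08, adjusted p = 0.0505) or 2 (−1.02, adjusted p = 0.0552). Rgs16 had 1.33 ± 0.57 and did not pass (adjusted p = 0.0911), but passed without LPS replicate 2 (2.04, adjusted p = 0.00154).

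Receptors and antagonists of cytokines rose more often than they fell, with 16 of 29 (30 listed) higher and 2 lower. These are 55.2% and 6.9%, against 15.8% and 22.2% of all genes, and the median of the list was 0.87. The IL-1 system led them. Il1rn, the secreted IL-1 receptor antagonist (chromosome 2, 24206125 to 24206184), was at 4.89, 5.19, 4.80 and 3.98 on LPS against −4.01 to 0.82 (median −3.49) on saline, a change of 7.40 ± 0.82 (adjusted p = 3.85e-05). The decoy receptor Il1r2 rose by 5.91 ± 0.54, with 1 of 6 saline livers well above background, and the signalling receptor Il1r1 by 4.82 ± 0.30. Il17ra rose by 4.28 ± 0.23 and the oncostatin M receptor Osmr by 3.69 ± 0.21. The members that fell were Csf1r, the macrophage growth factor receptor, at −0.99 ± 0.23 and Il12rb1 at −0.87 ± 0.21. Lifr, the leukaemia inhibitory factor receptor, had 0.37 ± 0.18, and its other probes gave −0.68 to 0.61.

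Interferon-inducible GTPases include the Mx proteins and the GBP and IRG families, of which the latter attack the vacuoles and membranes of intracellular pathogens. All rose, 15 of 15 tested (17 listed), against 15.8% of all genes, with a median of 5.58. Their families are near-identical copies, so probes may also bind a neighbour's RNA and single members are uncertain. Gbp2 (chromosome 3, 142300719 to 142300778) was at 6.96, 8.27, 7.22 and 7.05 on LPS and −1.69 to 2.54 (median −1.21) on saline, a change of 7.98 ± 0.73 (adjusted p = 1e-05). Gbp5, which promotes inflammasome assembly, was at 3.66, 5.01, 4.42 and 4.54 against −3.91 to −1.13 (median −3.46), a change of 7.49 ± 0.50. Mx1 was at 5.48, 5.30, 5.42 and 5.18 against −5.64 to −2.15 (median −3.83), a change of 9.26 ± 0.51, with 5 of 6 saline livers well above background. Mx1 did not overlap between groups. Gbp4 rose by 6.59 ± 0.52 and Tgtp by 6.04 ± 0.37, while the smallest rises of the group were those of Iigp1 (2.33 ± 0.28) and Igtp (3.42 ± 0.26), members of the IRG family. Irgm1, of the same family, rose by 4.54 ± 0.18 with an adjusted p of 2.45e-07 in limma. This was among the 8 smallest of the comparison with clone, predicted and numbered names left out.

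Sensors of nucleic acid, inflammasome parts and the interferon regulatory and STAT factors rose in 24 of 31 cases (34 listed) and fell in 5. These are 77.4% and 16.1%, against 15.8% and 22.2% of all genes, and the median of the list was 1.78. Zbp1, a sensor of Z-form nucleic acid that can trigger necroptosis (chromosome 2, 173032113 to 173032170), was at 4.33, 6.47, 5.50 and 5.25 on LPS and −1.17 to 1.44 (median 0.10) on saline, a change of 5.27 ± 0.50 (adjusted p = 1.22e-05). Tlr3, the receptor for double-stranded RNA, rose by 4.80 ± 0.35 and Dhx58, of the RIG-I family, by 3.27 ± 0.29. Casp4, the array's name for the intracellular LPS receptor caspase-11 of mice, was at 2.92, 3.69, 3.51 and 4.13 against −1.63 to 0.07 (median −0.66), a change of 4.26 ± 0.36. Irf7, the amplifier of type I interferon, rose by 3.44 ± 0.30, Irf1 by 2.33 ± 0.30 and Stat3 by 2.35 ± 0.26. Those that fell included Stat5b (−0.92 ± 0.17), Stat6 (−0.87 ± 0.17), Irf3 (−0.78 ± 0.22) and Tlr9 (−0.69 ± 0.17), of which Irf3 missed the threshold without LPS replicate 2 (−0.65, adjusted p = 0.059). Zbp1 and Casp4 did not overlap between groups, and Irf5 had 0.46 ± 0.20 without passing. Trex1, a DNA exonuclease that degrades cytosolic DNA and is on no list, rose by 4.76 ± 0.19 and Tlr2, the receptor for bacterial lipopeptides, by 6.81 ± 0.30. Both were among the 8 smallest adjusted p, again with clone, predicted and numbered names left out.

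The class I antigen pathway and the immunoproteasome, which cuts proteins into peptides for class I, rose in 21 of 23 cases (26 listed). This is 91.3%, against 15.8% of all genes. None fell, against 22.2% of all genes, and the median of the list was 1.08. Tap1, the peptide transporter, was at 2.83, 3.44, 3.31 and 3.30 on LPS and −0.17 to 0.32 (median 0.03) on saline, a change of 3.15 ± 0.18 (adjusted p = 5.36e-07). The immunoproteasome subunits Psmb10, Psmb8 and Psmb9 rose by 2.37 ± 0.30, 2.20 ± 0.28 and 2.10 ± 0.30, and Tapbpl, a peptide editor, by 2.14 ± 0.21. Class I heavy chains are near-identical copies and their probes can be shared; H2-Q10 had 0.09 ± 0.22 and did not pass, and was at −0.34 with normexp and quantile normalization. Among the subunits of the constitutive proteasome 3 of 31 were higher (9.7%, against 15.8% of all genes) and 1 lower (3.2%, against 22.2%). Their median was −0.03. Psma5 rose by 1.02 ± 0.27, Psmb2 by 0.63 ± 0.17 and Psmd7 by 0.55 ± 0.15, and Psmd11 fell by 0.47 on the log2 scale. Psmb4 had 0.21 ± 0.24. The call of Psmd11 ended when any of 7 livers was left out (saline replicates 1, 2, 4 and 5 and LPS replicates 1, 2 and 3), with changes of −0.50 to −0.39. A difference between these lists was not tested.

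Adhesion molecules and activation genes of the endothelium rose in 20 of 28 cases (30 listed) and fell in 2. These are 71.4% and 7.1%, against 15.8% and 22.2% of all genes, and the median of the list was 1.53. Selp, the P-selectin that lets leukocytes roll (chromosome 1, 166079660 to 166079719), was at 3.34, 3.43, 3.30 and 2.75 on LPS and −2.59 to −1.89 (median −2.33) on saline, a change of 5.49 ± 0.20 (adjusted p = 1.77e-07). Sele, the E-selectin, was not well above background in any saline liver and was at least 27.0-fold higher on LPS. Plaur rose by 4.84 ± 0.50, the vasoconstrictor precursor Edn1 by 4.21 ± 0.32, Icam1 by 4.07 ± 0.33 and Vcam1 by 3.58 ± 0.25. Thbd, the anticoagulant thrombomodulin, rose by 2.61 ± 0.50. Selp did not overlap between groups. The members that fell were the angiopoietin receptor Tek (−1.94 ± 0.41) and Pecam1 (−0.76 ± 0.21), which missed the threshold without LPS replicate 2 (−0.65, adjusted p = 0.0535). Vwf, the von Willebrand factor, had 0.07 ± 0.18 without passing.

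Identity genes of the liver sinusoidal endothelium moved the other way in the same livers. Of 15 tested 11 fell and 2 rose, or 73.3% and 13.3% against 22.2% and 15.8% of all genes. Their median was −1.17. Sox18, an endothelial transcription factor well above background in 1 of 4 LPS livers, fell by 5.35, Wnt2 by 3.90, the orphan receptor Gpr182 by 3.75 and the VEGF receptor Kdr by 2.94 on the log2 scale, while Lyve1 rose by 3.02 ± 0.47 and Cdh5 by 1.28 ± 0.17. Their summed level was 27.3 to 45.0 in the LPS livers and 48.6 to 72.9 on saline, and the groups do not overlap. In bulk RNA fewer cells of a type and less RNA per cell cannot be told apart, here and in the results that follow.

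Wnt, BMP, TGF-beta and Notch signalling, which pattern the liver lobule and its vessels, had 21 falls and 7 rises among 40 genes tested (45 listed). These are 52.5% and 17.5%, against 22.2% and 15.8% of all genes, and the median of the list was −0.81. Wnt2, a Wnt ligand of central vein and sinusoidal endothelium, was at −3.31, −4.42, −3.55 and −2.42 on LPS and 0.27 to 0.81 (median 0.35) on saline, a change of −3.90 ± 0.33 (adjusted p = 5.07e-06), with 3 of 4 LPS livers well above background. Wnt9b, the other endothelial Wnt of the liver, fell by 1.78 on the log2 scale, with 1 of 4 LPS livers well above background. The Notch ligand Dll4 was not well above background in any LPS liver, and the Notch effector Heyl changed by −3.07 ± 0.36 with 1 LPS liver well above background. Dll1, another Notch ligand, rose by 3.82 ± 0.27 and Bmper, which binds BMPs, by 4.48 ± 0.43. Wnt2 did not overlap between groups. Id1, a target of BMP signalling, rose by 1.85 ± 0.29, and Id2 had 0.11 ± 0.32 without passing.

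Genes of pericentral hepatocytes, the zone around the central vein that Wnt signals maintain, had 10 falls and 4 rises among 24. These are 41.7% and 16.7%, against 22.2% and 15.8% of all genes, and the median of the list was −0.28. Of the 10 falls 7 were in Wnt target and feedback genes, and the others were in Cyp7a1, Lect2 and Gulo. Glul, Cyp1a2, Cyp2e1, Rhbg, Slc1a2 and Oat, on the same list, were not among the falls. Wnt signalling itself was not measured. Sp5 changed by −5.21 ± 0.33 and Lgr5, the R-spondin receptor, by −2.87 ± 0.26, with 1 and 3 of 4 LPS livers well above background. Rnf43, which removes Wnt receptors from the membrane, was at 0.28, −0.37, −1.16 and 0.72 on LPS and 2.27 to 3.26 (median 2.53) on saline, a change of −2.77 ± 0.35 (adjusted p = 9.57e-05). Nkd1 fell by 2.37, Tbx3 by 2.31, Axin2 by 2.24 and Znrf3 by 1.95 on the log2 scale, the last 2 with 3 and 2 of 4 LPS livers well above background. Glul, the glutamine synthetase of the innermost pericentral cells, had 0.68 ± 0.32 and Cyp1a2 0.06 ± 0.21 without passing, while Cyp3a11, a drug-metabolising enzyme, rose by 2.27 ± 0.31. Cyp7a1, which starts the classical route from cholesterol to bile acids, changed by −8.34 ± 0.63 in its brightest probe and −2.42 in its other, with 1 LPS liver well above background. Without that liver no LPS liver measured it, and only a bound would hold. Rnf43 did not overlap between groups.

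Periportal hepatocyte genes had 3 rises and 2 falls among 22 tested (23 listed), or 13.6% and 9.1% against 15.8% and 22.2% of all genes. Their median of 0.08 was −0.08 to −0.28 under 4 other normalizations. G6pc, the last enzyme of glucose release (chromosome 11, 101238947 to 101239006), was at −0.52, 0.51, 0.56 and 0.17 on LPS and 4.70 to 6.17 (median 5.27) on saline, a change of −5.27 ± 0.33 (adjusted p = 9.2e-07 in limma). It was the largest fall among genes measured on all 10 arrays whose groups do not overlap, with clone, predicted and numbered names left out. Hal, the first enzyme of histidine breakdown, fell by 1.42 on the log2 scale. The serine enzymes Sds and Sdsl rose by 1.20 ± 0.29 and 1.02 ± 0.34, and the angiotensin precursor Agt by 0.73 ± 0.15. Sds and Sdsl overlapped between groups. The call of Sdsl ended when any of 6 livers was left out (saline replicates 1, 2, 3 and 4 and LPS replicates 2 and 4), with changes of 0.81 to 1.02.

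Of 36 genes of glucose uptake and glycolysis 10 rose and 10 fell (27.8% each, against 15.8% and 22.2% of all genes), with a median of −0.09. Pfkfb3, which makes the strongest activator of glycolysis and is the inducible form of its family, was at 5.47, 6.26, 6.11 and 6.75 on LPS and −0.72 to 1.92 (median −0.15) on saline, a change of 5.91 ± 0.47 (adjusted p = 4e-06). The transporter Slc2a6 rose by 4.73 ± 0.44, hexokinase 2 (Hk2) by 3.47 ± 0.30 and Pfkp by 1.69 ± 0.25. Pklr, the pyruvate kinase of liver and red cells, and Pfkl, the liver phosphofructokinase, were among those that fell, with changes of −0.82 ± 0.15 and −0.64 ± 0.18. Pfkfb3 did not overlap between groups.

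**Figure D3:**
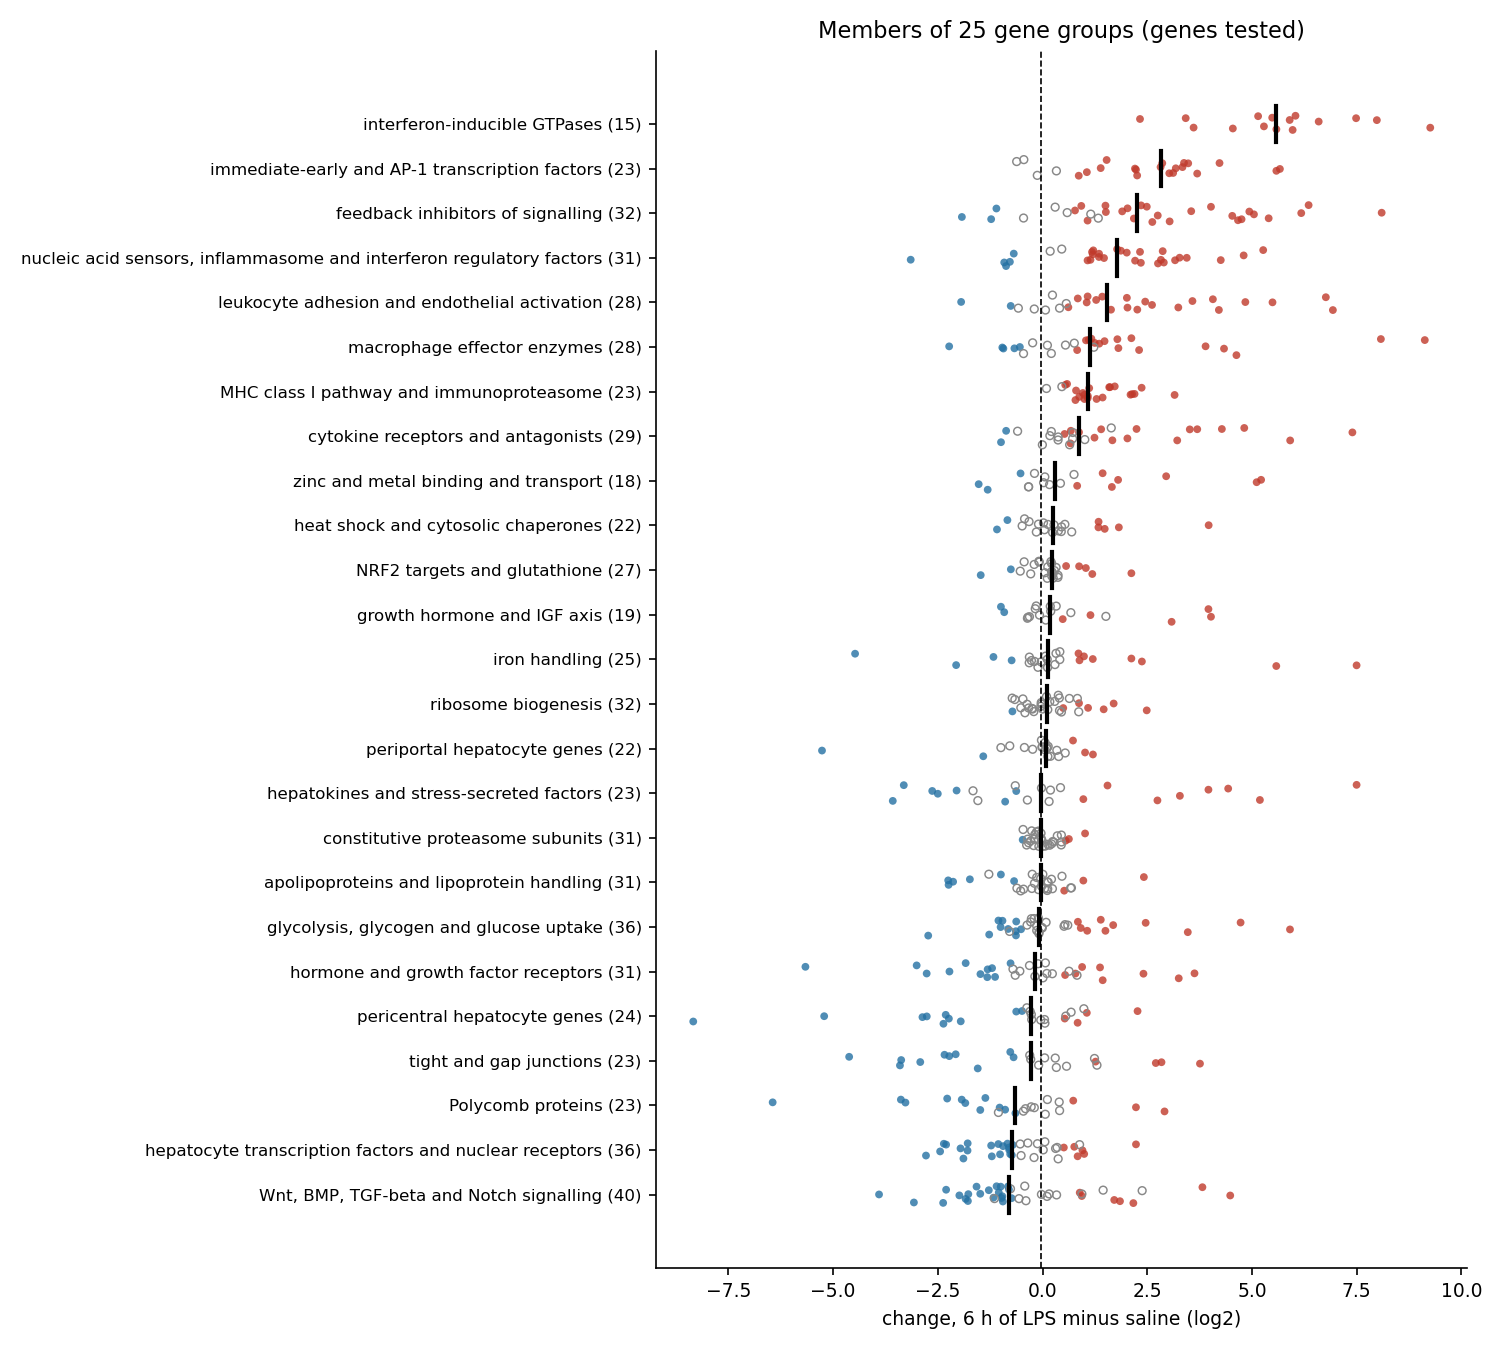
Change at 6 h of LPS (log2, x) of each tested member of 25 gene groups (rows), with called members filled, others open and the bar at the group's median; the dashed line is the median of all 17154 genes, at −0.03. Interferon-inducible GTPases have the highest median, 5.58, and Wnt, BMP, TGF-beta and Notch genes the lowest, −0.81.

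Transcription factors and nuclear receptors that define hepatocytes fell in 19 of 36 cases (37 listed) and rose in 6. These are 52.8% and 16.7%, against 22.2% and 15.8% of all genes, and the median of the list was −0.72. Thra, a thyroid hormone receptor (chromosome 11, 98626356 to 98626415), was at −0.35, −0.70, −0.65 and 0.20 on LPS and 1.33 to 2.26 (median 2.08) on saline, a change of −2.30 ± 0.25 (adjusted p = 3.75e-05). Nr0b2, the bile acid-induced repressor SHP, fell by 2.78 and Ppargc1b, a co-activator of oxidative genes, by 2.45, with −4.13 and −3.94 in its other probes. Cebpa, a factor of the mature hepatocyte, fell by 1.21. Without LPS replicate 2 the change of Nr0b2 was −2.09. Cebpb, which is known to replace C/EBP-alpha at acute-phase promoters, rose by 2.23 ± 0.26. Thra did not overlap between groups. Nr5a2 had 0.88 ± 0.44 and did not pass (adjusted p = 0.145), but passed without LPS replicate 2 (1.36, adjusted p = 0.0135).

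Hormone and growth factor receptors had 11 falls and 8 rises among 31 tested (35 listed), or 35.5% and 25.8% against 22.2% and 15.8% of all genes. Their median was −0.18. Irs1, the insulin receptor substrate, was at −1.57, −0.83, −0.01 and −0.66 on LPS and 0.13 to 3.01 (median 2.65) on saline, a change of −3.01 ± 0.53 (adjusted p = 0.000958). Erbb3 changed by −2.77 ± 0.42 and the parathyroid hormone receptor Pth1r by −5.66 ± 0.34, with 2 of 4 LPS livers well above background. The leptin receptor Lepr rose by 3.25 ± 0.39, with 4 of 6 saline livers well above background. The glucagon receptor Gcgr had −0.65 ± 0.31 and did not pass, but passed without LPS replicate 4 (−0.90, adjusted p = 0.0354). Irs1 did not overlap between groups.

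In the growth hormone and IGF axis 5 of 19 genes rose and 2 fell (20 listed), or 26.3% and 10.5% against 15.8% and 22.2% of all genes. Their median of 0.18 was −0.08 to −0.13 under 3 other normalizations. Socs2, the feedback inhibitor of growth hormone signalling, was at 5.14, 4.86, 5.46 and 5.55 on LPS and −0.12 to 2.69 (median 1.26) on saline, a change of 4.02 ± 0.42 (adjusted p = 2.7e-05). Igfbp1, a stress-induced IGF-binding protein, was at 9.21, 9.73, 9.46 and 9.88 against 4.02 to 7.53 (median 5.48), a change of 3.96 ± 0.54. Jak2 rose by 3.08 ± 0.37 and Stat5a by 1.14 ± 0.31, while Igfals, which stabilises circulating IGF1, fell by 0.99 on the log2 scale. Socs2 and Igfbp1 did not overlap between groups, whereas Stat5a and Igfals did, and Igfals missed the threshold without LPS replicate 2 (−0.91, adjusted p = 0.0524). Igf1 itself had 0.20 ± 0.17 and Igfbp2 0.33 ± 0.27.

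Hepatokines and stress-secreted factors had 8 rises and 7 falls among 23 (24 listed), or 34.8% and 30.4% against 15.8% and 22.2% of all genes. Their median was −0.03. Nampt, which makes an NAD precursor, was at 6.33, 6.45, 6.26 and 5.53 on LPS and 1.0 to 2.31 (median 1.86) on saline, a change of 4.43 ± 0.29 (adjusted p = 1.06e-06). Inhbb, the activin B subunit, rose by 5.19 ± 0.41 in its brightest probe and by 1.74 in its other. Inhba and Inhbe, other activin subunits, fell by 2.63 and 2.50, and Fst, which binds activins, rose by 2.74 ± 0.46. Without LPS replicate 2 the change of Inhbe was −1.75. EG624219, the array's name for Angptl8, an insulin-induced inhibitor of lipoprotein lipase, changed by −3.58 ± 0.48. Nampt did not overlap between groups, and Ahsg, the plasma protein fetuin-A, had 0.16 ± 0.32.

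Iron genes had 8 rises and 4 falls among 25 (26 listed), or 32% and 16% against 15.8% and 22.2% of all genes. Their median of 0.12 was −0.02 to −0.12 under 4 other normalizations. Hfe2, the array's name for hemojuvelin, the co-receptor through which BMPs raise hepcidin (chromosome 3, 96332113 to 96332172), was at −2.13, −2.86, −2.0 and −2.28 on LPS and 2.0 to 2.36 (median 2.09) on saline, a change of −4.48 ± 0.19 (adjusted p = 2.45e-07). Hamp, which encodes the iron hormone hepcidin, rose by 1.20 ± 0.27, and Slc40a1, the iron exporter ferroportin that hepcidin removes, fell by 2.06 on the log2 scale. Steap4, a metalloreductase, rose by 5.58 ± 0.48, the iron importer Slc11a2 by 2.37 ± 0.33 and haem oxygenase 1 (Hmox1) by 2.12 ± 0.26. Hp, the haemoglobin-binding haptoglobin, had 0.41 ± 0.23 and did not pass.

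Zinc and metal genes had 7 rises and 3 falls among 18, or 38.9% and 16.7% against 15.8% and 22.2% of all genes. Their median was 0.30. The metallothionein Mt2, which stores zinc (chromosome 8, 96697371 to 96697430), was at 9.45, 9.62, 9.34 and 10.02 on LPS and 2.31 to 7.43 (median 4.82) on saline, a change of 5.11 ± 0.84 (adjusted p = 0.00059), and Mt1 rose by 5.22 ± 0.79. The zinc importer Slc39a14, known to bring zinc into the liver in inflammation, rose by 2.95 ± 0.26, Slc30a5 by 1.80 ± 0.32 and Slc39a10 by 1.66 ± 0.37. The exporter Slc30a1 fell by 1.53 on the log2 scale. Mt2 did not overlap between groups, and Slc39a4 had −0.33 ± 0.30.

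Apolipoproteins and lipoprotein handling had 3 rises and 6 falls among 31 (32 listed), or 9.7% and 19.4% against 15.8% and 22.2% of all genes. Their median was −0.04. Abca1, the cholesterol exporter, was at 6.07, 6.24, 6.26 and 5.96 on LPS and 3.41 to 4.01 (median 3.67) on saline, a change of 2.42 ± 0.16 (adjusted p = 1.43e-06). Apoa4, an apolipoprotein of intestine and liver, changed by −2.25 ± 0.37. Abcg1 fell by 1.74 on the log2 scale. Abca1 did not overlap between groups, and Apoc1 had 0.21 ± 0.26.

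Tight and gap junction genes had 10 falls and 4 rises among 23 (25 listed), or 43.5% and 17.4% against 22.2% and 15.8% of all genes. Their median was −0.28. Cldn3 was at 1.37, 1.02, 1.79 and 1.58 on LPS and 3.62 to 4.81 (median 4.46) on saline, a change of −2.92 ± 0.25 (adjusted p = 5.83e-06). Cldn1 and Ocln, which seal bile canaliculi, changed by −4.62 ± 0.24 and −3.38 ± 0.46, each with 2 of 4 LPS livers well above background, and Tjp3 by −3.41 ± 0.27. Cldn14 rose by 3.76 ± 0.22 and the endothelial connexin Gja4 by 2.84 ± 0.24. Cldn3 did not overlap between groups, and Gjb2, a hepatocyte connexin, had 0.33 ± 0.21.

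Polycomb proteins, which silence genes through histone marks, had 11 falls and 3 rises among 23 (24 listed), with a median of −0.65. Cbx2 was well above background in 6 of 6 saline livers and in no LPS liver, and was at least 20.4-fold lower (chromosome 11, 118892363 to 118892422). Its other chromobox relatives Cbx6, Cbx8 and Cbx7 changed by −3.38 ± 0.17, −3.27 ± 0.28 and −2.28 ± 0.31, with −2.20 and −1.97 in the other probes of Cbx6. Pcgf5 was at 3.57, 4.19, 3.55 and 3.85 on LPS and 0.63 to 1.14 (median 0.85) on saline, a change of 2.91 ± 0.19 (adjusted p = 1.03e-06), and Phc2 rose by 2.23 ± 0.22. Pcgf5 did not overlap between groups, and Eed had 0.41 ± 0.18, passing without saline replicate 4 (0.49, adjusted p = 0.0486).

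Of 22 heat shock and chaperone genes (23 listed) 5 rose and 2 fell (median 0.26), or 22.7% and 9.1% against 15.8% and 22.2% of all genes. Hspa2 led them at 3.97 ± 0.39, Bag3 had 1.82 ± 0.29 and Hspa8 1.33 ± 0.20, and Hspd1 had 0.38 ± 0.21 without passing. Of 32 ribosome biogenesis genes 6 rose (18.8%) and 1 fell (3.1%, median 0.11, and below 0 with median centring). Nol5, the array's name for Nop58, rose by 2.49 ± 0.31 and Wdr43 by 1.70 ± 0.19, and the methyltransferase fibrillarin (Fbl) had −0.04 ± 0.28. Of 27 NRF2 targets and glutathione genes (28 listed) 5 rose (18.5%) and 2 fell (7.4%). Their median was 0.22, and −0.06 to −0.07 under 3 other normalizations. Txnrd1, of the thioredoxin system, rose by 1.19 ± 0.19, while the sulfiredoxin Srxn1 fell by 1.48 on the log2 scale. Gstp1 had 0.22 ± 0.27.

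Effector enzymes of macrophages rose in 16 of 28 cases (30 listed) and fell in 5, or 57.1% and 17.9% against 15.8% and 22.2% of all genes. Their median was 1.14. Ch25h, which makes 25-hydroxycholesterol, changed by 8.08 ± 0.98 and Irg1, the enzyme of itaconate, by 9.13 ± 1.02, with 3 and 2 of 6 saline livers well above background. The histamine enzyme Hdc was at 3.43, 4.08, 4.26 and 3.60 on LPS and −1.54 to 0.28 (median −0.83) on saline, a change of 4.63 ± 0.32 (adjusted p = 1.55e-06). Nos2, the inducible nitric oxide synthase, was at least 3.89-fold higher and not well above background on saline. Ptgs1 fell by 2.23 on the log2 scale, and Arg1, which hepatocytes express for the urea cycle, had −0.24 ± 0.18. Hdc did not overlap between groups.

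Markers of blood and resident cells moved in the same livers, and their part in the results above was not tested. Neutrophil markers rose in 10 of 12 cases, and their summed level was 186 to 263 in the LPS livers against 2.90 to 24.5 on saline. Lcn2, which hepatocytes also make, is on that list and made up 62.2% to 78.7% of the LPS sums. Without it the other 11 markers summed to 55.9 to 97.2 on LPS and to 2.46 to 9.57 on saline, or at most 5.23 without saline replicate 5. Retnlg rose by 5.51 ± 0.29, S100a8 by 4.67 ± 0.51 and Ngp, a granule protein well above background in 2 of 6 saline livers, by 4.88 ± 0.66. Monocyte markers rose in 7 of 9 cases, with sums of 20.5 to 40.0 against 4.54 to 10.3, but Ccr2, the receptor for Ccl2, was at least 2.06-fold lower and not well above background in any LPS liver. T and NK cell markers rose in 4 of 10 cases, and those were the cytotoxic and signalling genes Gzmb (4.51 ± 0.40), Lck, Gzma and Prf1, while Cd3e had 0.88 ± 0.32, passing without saline replicate 6 (1.02, adjusted p = 0.0255) or LPS replicate 4 (1.20, adjusted p = 0.00628). Platelet markers rose in 5 of 6 cases, with sums of 1.71 to 2.71 against 0.627 to 1.34.

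Kupffer cell markers fell in 6 of 13 cases and rose in 1, with sums of 40.6 to 103 in the LPS livers and 74.5 to 97.7 on saline. Cd163, the haemoglobin scavenger receptor, was at −0.97, −1.47, −1.55 and −0.34 on LPS and 0.56 to 1.44 (median 1.08) on saline, a change of −2.11 ± 0.29, and Clec4f fell by 1.20 on the log2 scale. Marco, another scavenger receptor, rose by 2.47 ± 0.52, and Timd4 had 0.15 ± 0.17. Stellate cell markers had 5 falls and 2 rises of 12, with a median of 0.12. Their sums were 133 to 205 in the LPS livers and 89.5 to 172 on saline. Among the falls, Lrat, which stores retinol, changed by −1.99 ± 0.28 and Pdgfrb by −1.46 ± 0.27. B cell markers had 1 fall of 5, erythroid markers no call of 5, cholangiocyte markers 1 rise and 1 fall of 6, pancreatic markers no call of 2 and adipocyte markers 1 rise of 2. Over all genes 15.8% rose and 22.2% fell. Sftpd and Sftpa1, 2 of the 3 lung epithelial markers tested, rose by 2.93 ± 0.71 and 1.90 ± 0.46, and none of the 3 was well above background on all 10 arrays.

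**Figure D4:**
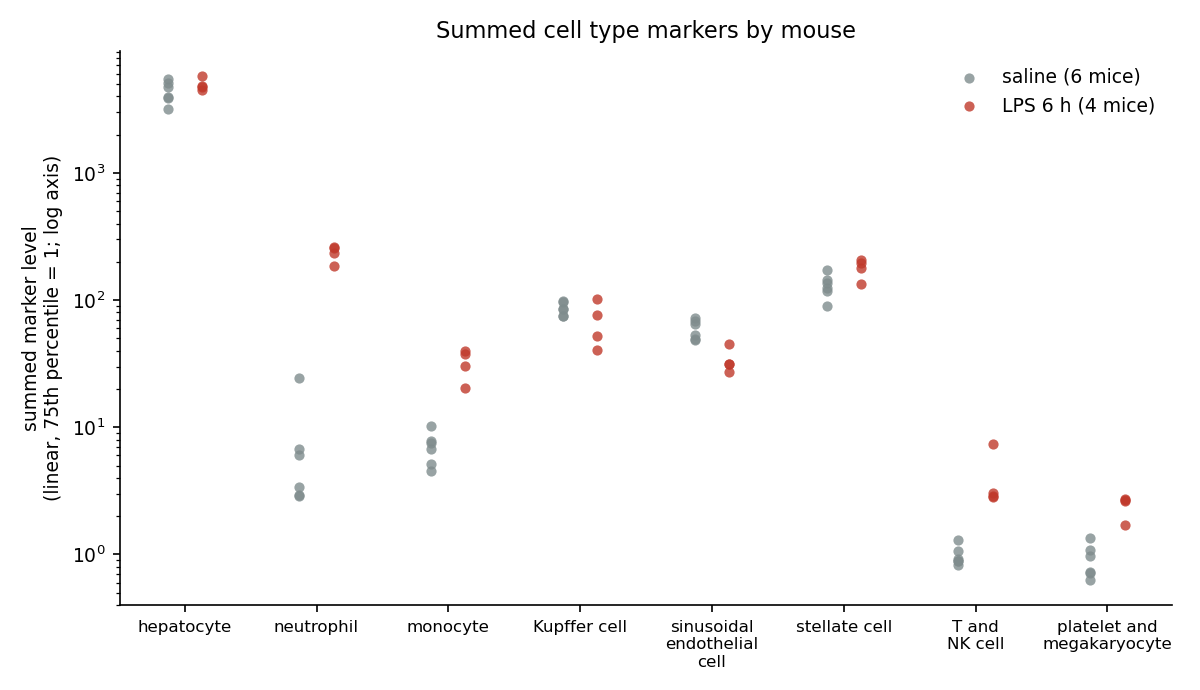
Summed level of the markers of 8 cell types on each array (log axis, linear signal as a multiple of each array's 75th percentile), 4 LPS livers and 6 saline livers. Neutrophil sums, to which Lcn2 gives 62.2% to 78.7% on LPS, are 186 to 263 there and 2.90 to 24.5 on saline (55.9 to 97.2 and 2.46 to 9.57 without Lcn2, not drawn), and those of sinusoidal endothelium (27.3 to 45.0) lie below all of theirs (48.6 to 72.9).

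The other large falls among genes measured on all 10 arrays, again taken from those whose groups do not overlap, came from varied functions. Celsr1, a cadherin of planar cell polarity (chromosome 15, 85729381 to 85729440), was at −2.89, −2.48, −2.34 and −1.86 on LPS and 2.20 to 3.22 (median 2.85) on saline, a change of −5.22 ± 0.25 (adjusted p = 2.8e-07). Arrdc3, an arrestin-like adaptor of receptor traffic, was at −2.18, −2.55, −1.40 and −2.44 against 2.28 to 3.27 (median 3.08), a change of −5.02 ± 0.30. Sdpr, a protein of caveolae now named Cavin2, was at −2.34, −2.21, −1.57 and −1.19 against 1.62 to 3.45 (median 3.04), a change of −4.72 ± 0.37. Fam20c, the kinase of secreted proteins, fell by 4.40, Mvd, of cholesterol synthesis, by 4.19, the kinase Mast3 by 4.44 and Spns2, which exports sphingosine-1-phosphate, by 4.10 on the log2 scale. Fam89a, Plekhh3 and Anks4b fell by 4.27, 4.18 and 4.09.

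For genes that stood well above background in 1 group alone, the fold is a bound against the background level of the other. Among the 57 higher genes of this kind, Slfn4, of the Schlafen family, was at least 63.5-fold higher, the oxidised LDL receptor Olr1 44.6-fold and neuropeptide Y (Npy) 26.5-fold. Slfn3 was at least 20.9-fold and the leukocyte receptor Slamf7 16.5-fold higher, or 10.9-fold without LPS replicate 2. Among the 243 lower genes, Zfp467, a zinc finger factor, was at least 15.7-fold lower. Gas1, a hedgehog co-receptor, was at least 13.1-fold, Gmpr, of purine interconversion, 11.3-fold, the endothelial lectin Clec14a 8.13-fold and the potassium channel Kcnj16 3.82-fold lower. Such genes passed the filter on dim probes through 1 group, as did 10 of the 753 listed genes tested, and so had to differ between the groups. The filter asked for 4 of the 10 arrays. A gene dim on saline thus had to be measured in all 4 LPS livers, while a gene dim on LPS needed only 4 of 6 saline livers. Falls of this kind were therefore easier to count than rises, so 57 and 243 are not comparable. The same filter bears on the counts of all calls.

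Among the 12 largest rises the SD over the 4 LPS livers was 0.16 (Cxcl10) to 0.82 (Ccl2), but some genes spread far more. Gbp1 was at 5.36, 5.39 and 5.34 in LPS replicates 1, 3 and 4 and at −2.46 in replicate 2, inside the saline range of −3.01 to −0.08 (median −2.35). Its change was 5.48 ± 1.40 (adjusted p = 0.00939), 7.44 without replicate 2 and 4.82 to 4.84 without another LPS replicate. At 20 h of LPS the wild-type livers ranged from −4.20 to 4.74 for it. Abhd1 was at 2.53, −2.36, 3.54 and −1.20 on LPS and 2.94 to 4.28 (median 3.89) on saline, so that replicates 2 and 4 lay below the saline range and replicates 1 and 3 in or near it. Its change was −3.08 ± 1.01, and the call ended without any of saline replicates 1, 2, 5 and 6 and LPS replicates 2 and 4 (−3.07 to −2.08), while it was −3.71 without LPS replicate 1 and −4.05 without 3. Pdk4, which restrains glucose oxidation, was at 3.17, −0.62, 3.25 and 1.30 against −1.44 to 0.83 (median −0.79), and its change of 2.46 ± 0.73 came with an overlap between groups. It missed the threshold without LPS replicate 1 (2.0) or 3 (1.97) and was 3.26 without replicate 2. These 3 genes passed the test although their groups overlap.

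Zfp131 was at 0.58, 1.55, 0.80 and −3.32 on LPS, with replicate 4 apart, and its change was −0.48 ± 0.77, or 0.60 without that replicate. Ccdc21 was at 1.23, −2.33, −2.18 and 0.95, Dpf1 at 0.86, 1.0, −4.12 and −3.21 and the neurotrophin receptor Ntrk2 at −3.39, 1.29, −1.47 and −0.43 in the LPS livers. The PPAR-alpha target Cyp4a14, which hydroxylates fatty acids, was at 5.39, 1.35, 6.32 and 2.67 on LPS and 0.79 to 5.23 (median 2.89) on saline. None of these 5 genes passed the test with all livers, and Dpf1 passed without LPS replicate 3 (2.82, adjusted p = 0.0239).

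A direct test of 6 h against 20 h of LPS in wild type (4 and 6 mice, no saline array) called 6815 of the 17154 genes (39.7%), 3590 (20.9%) higher and 3225 (18.8%) lower at 6 h. The genes and their probes were chosen on the arrays of the saline comparison, without those at 20 h. A gene measured only at 6 h could thus be tested and a gene measured only at 20 h could not, which bears on all counts against 20 h. It shares the 4 livers at 6 h with the saline comparison, so a liver that stands apart moves both. Of the calls 52.7% were higher at 6 h, against 42.7% to 47.3% under 4 other normalizations. The 6 largest differences in favour of 6 h among genes called in both tests were those of Hsd3b5 and Mmp13, followed by 4 interferon-induced genes. Ifit1 was at −0.59 to 3.22 (median 1.24) at 20 h, and the level at 6 h exceeded it by 6.77 ± 0.64 in the means (adjusted p = 3.16e-05). Mx1 differed by 6.69 ± 0.77, Cmpk2 by 6.79 ± 0.86 and Ifit2, changed by 8.29 ± 0.50 against saline, by 6.35 ± 0.59. Mmp13, a collagenase, changed by 8.06 ± 0.48 against saline, where 2 of 6 livers were well above background, and stood 7.04 ± 0.52 above 20 h. Of the interferon-inducible GTPases 12 of 15 were higher at 6 h than at 20 h and none was lower.

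Hsd3b5, a male-typical steroid dehydrogenase of the liver, was at 4.35, 3.38, 4.12 and 4.16 at 6 h, against 5.20 to 6.33 (median 5.75) on saline and −4.49 to −0.37 (median −3.44) at 20 h. It was lower than on saline (−1.76 ± 0.27) and higher than at 20 h (7.13 ± 0.65, adjusted p = 2.39e-05). G0s2, the inhibitor of adipose triglyceride lipase, was at −3.46, −4.34, −2.52 and −4.82 at 6 h with 2 livers well above background, −5.98 ± 0.43 from saline, and at 0.35 to 4.10 (median 2.92) at 20 h. The direct difference was −6.31 ± 0.76 (adjusted p = 0.000112). Reg3b, an antimicrobial lectin, changed by 5.85 ± 1.29 against saline, where 1 of 6 livers was well above background, and by −5.14 ± 0.51 against 20 h, where it was at 3.80 to 6.74 (median 4.84). Phlda3 and Cgref1 were lower at 6 h than in either other group, by 2.52 and 2.93 against saline and with direct differences of −5.18 ± 0.37 and −5.05 ± 0.45 against 20 h. Olig1 had a direct difference of −6.14 ± 0.74, with 2 of the 4 livers at 6 h well above background. Ccdc120, also lower at 6 h, was not well above background in any liver at that time.

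**Figure D5:**
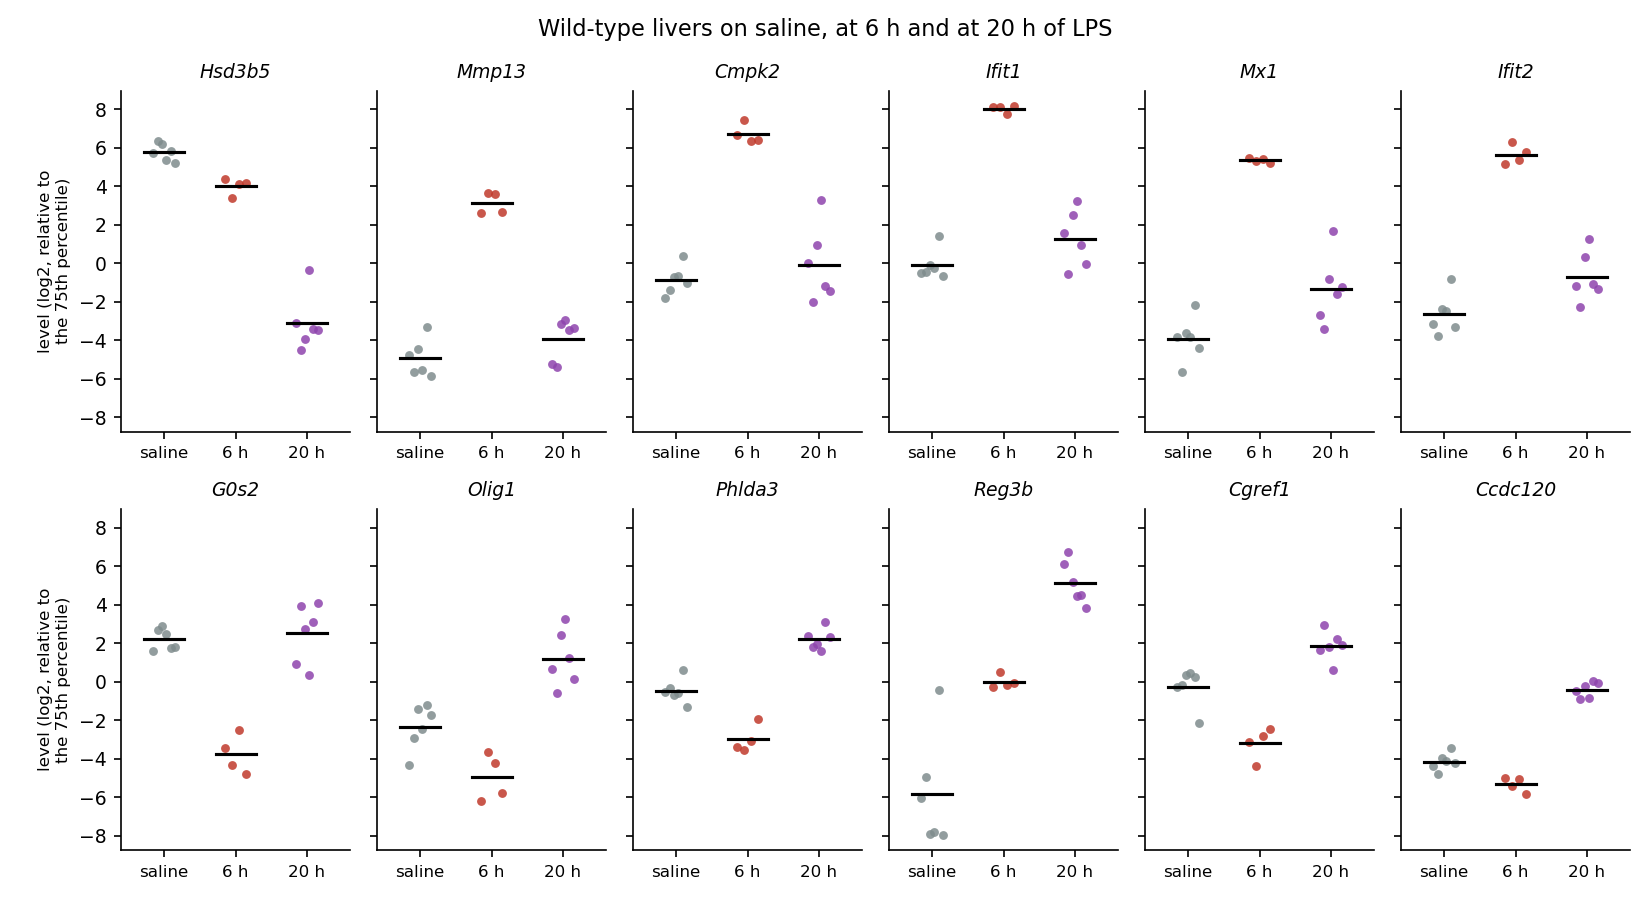
Level (log2 relative to the array's 75th percentile) in wild-type livers on saline (6 mice), at 6 h (4) and at 20 h of LPS (6) of 12 genes with the largest differences between 6 h and 20 h among genes called in both tests; points are mice and bars are means. The upper row holds genes higher at 6 h, such as Ifit1 and Mx1, and the lower row genes higher at 20 h, such as G0s2 and Reg3b. Clone, predicted and numbered names were left out.

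Members of the gene groups were counted in the direct test against 20 h as well, where 20.9% of all genes were higher and 18.8% lower at 6 h. Sensors and interferon regulatory factors were higher at 6 h in 20 of 31 cases and lower in 1, and cytokine receptors in 13 and 3 of 29. Apolipoproteins were higher at 6 h in 17 of 31 cases and lower in 2, pericentral genes in 15 and 0 of 24 and glycolysis genes in 16 and 6 of 36. Ribosome biogenesis genes were higher at 6 h in 1 of 32 cases and lower in 13, and Polycomb genes in 2 and 10 of 23. Neutrophil markers were higher in 3 and lower in 3 of 12 cases, and Kupffer cell markers higher in 9 of 13 and lower in none.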

How the data were processed

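RNA of 32 mouse livers was hybridised to 1-colour Agilent arrays, of which 10 form the main comparison and 6 more, wild type at 20 h of LPS, a second one. Per the file headers, the authors deposited Feature Extraction output, in which the processed signal is an intensity with background subtracted and spatial trends removed within each array, and no normalization between arrays. The authors also deposited a table of log2 values whose normalization no header or label states; it served as an alternative, and each of its 32 columns correlated best with its own array. Its column medians were 8.80 to 8.91.

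Control spots and outlier spots were left out, spots of a probe averaged, and log2 intensity was taken minus each array's 75th percentile. Probes well above background on at least 4 of the 10 arrays were kept (25133 of 41174), and of several probes with one gene name the brightest was used, leaving 17154 names. Names are those of the array, and 14413 matched RefSeq, 2220 of them under another symbol. Probe positions are those of the files (mm9). Groups were taken from the labels, with 1 array a mouse. Changes were tested with limma 3.58.1 (R 4.3.3), lmFit and eBayes on the 10 arrays alone, with Benjamini-Hochberg adjustment over all genes at 0.05, two-sided. Same-numbered livers did not deviate together, so no pairing was used. Simulated data of this size held 200 changed genes. In them the test called 0%, 28%, 90% and 98% of genes changed by 0.5, 1, 2 and 4 on the log2 scale, with 7 false calls. The data hold 6520 calls, so an adjusted p of 0.05 stands at a larger p there than in the simulation. The simulated shares therefore do not give the share of changes found in the data. The number of arrays limits the precision.

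The members and gene lists were chosen with earlier results of these data known, so lists are given as counts and medians beside those of all genes and carry no test. Named genes are the 12 largest rises and falls measured on all 10 arrays without overlap of groups, the 6 largest on each side measured in 1 group alone, from every list at most 5 called genes (those that moved most) and the brightest gene that was not called, the 8 genes with the widest spread among LPS livers, the 6 largest differences on each side from 20 h, and the 8 smallest p. Clone, predicted and numbered names were left out of these rankings, except in the lists. Genes named outside this rule, such as list members added as examples, were chosen after their values were seen. Some genes that the rule names are not reported here. A bound compares the mean of the measured group with a mean over the arrays of the other. There each array gives the larger of the gene's level and the lowest signal well above background of any probe on it. Alternatives changed the normalization, background correction, dim-probe filter, probe rule, arrays in the fit, slide, scan date, threshold and each replicate in turn. Promoters are from RefSeq (GRCm38.p6), another build than that of the probe positions.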

Additional observations from a re-analysis of the deposited data

Results flagged for a closer look

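In 39 of the 474 groups of values tested, 1 liver's level lay farther from its neighbours than Dixon's critical value allows, and chance alone gives about 1 group in 20. All values here are levels, log2 relative to the array's 75th percentile.

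Saline replicate 5 accounted for 15 of them, each time as the highest saline liver. Its levels were Ccrl2 (−0.76), Cebpb (6.35), Cxcl10 (2.37), Cxcl9 (3.89), Gbp1 (−0.082), Gbp2 (2.54), Gbp5 (−1.13) and Ier3 (−0.64). The others were Ifit1 (1.42), Il1r2 (−3.52), Il1rn (0.82), Plaur (−0.47), Rsad2 (3.19), Socs1 (2.03) and Tgtp (2.19). These genes are chemokines, interferon-induced GTPases, IL-1 antagonists and other genes that rose at 6 h of LPS, and the cause was not tested. LPS replicate 2 accounted for 10, with Atf3 (3.73), Csf1r (1.55), Dll1 (1.51), Edn1 (1.42) and Gbp1 (−2.46). The rest of its levels were Gbp4 (4.38), Inhbe (−1.16), Pth1r (−5.57), Slamf7 (0.86) and Tnfaip3 (5.58). For Gbp1 and Csf1r that liver lay inside the saline range and the other 3 LPS livers outside it.

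Among the other LPS livers, replicate 3 stood apart for Cyp7a1 (−3.29), Fam89a (−3.37), Ifit1 (7.74), Sigirr (1.0) and Socs3 (7.93), replicate 1 for Tek (−2.34) and replicate 4 for Steap4 (6.48). Among the other saline livers, replicate 3 stood apart for Irs1 (0.13) and Sdpr (1.62), and replicate 6 for Cgref1 (−2.17), Igfbp2 (5.59) and Slfn4 (−7.59). Saline replicate 2 stood apart for Id1 (0.91) and replicate 4 for Ppargc1b (0.23).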

How the results depend on the processing

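With each liver left out in turn, 2371 to 2751 genes were higher and 3209 to 3808 lower than on saline, and 3003 to 3774 were higher and 2569 to 3403 lower than at 20 h. Genes lower than on saline numbered 2508 with at least a 2-fold change also required and 2190 with slide as a fixed block over the 32 arrays. At an adjusted p of 0.01, 2205 genes were higher and 1981 lower than at 20 h. The replicate numbers do not pair the mice, and with the replicate block 2095 genes were higher and 2583 lower than on saline, and 2516 higher and 2223 lower than at 20 h; 3 of the 4 same-number correlations were below 0 and 1 was 0.25.

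Of 237 genes followed, 204 were called, and 178 kept their direction and side of the threshold under every alternative; slide as a fixed block ended the most calls, 42. Of 11 genes followed against 20 h, 10 kept theirs, and the difference of Reg3b had an adjusted p of 0.087 with slide as a fixed block. Klf2 turned to 1.70 with the mean over probes and H2-Q10 to −0.34 with normexp and quantile normalization. Medians of lists turned below 0 with quantile normalization, median centring, normexp with quantile normalization and the deposited table, in that order, for iron genes (−0.020, −0.039, −0.12 and −0.081) and periportal genes (−0.21, −0.078, −0.28 and −0.23), the latter also with slide as a fixed block (−0.089). With quantile normalization, normexp and the deposited table, the growth hormone list was at −0.078, −0.13 and −0.11 and the NRF2 list at −0.056, −0.059 and −0.070. Over 26 lists and 24 alternatives, the median moved by less than its spread over the LPS livers in 536 cases and by more, without turning, in 73. The medians of the apolipoprotein, proteasome and hepatokine lists, close to 0, turned positive under some of these, as the ribosome list turned negative with median centring. Probes near background carry only bounds, and 2 LPS livers have no saline liver of their scan date.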
